A study of Mus musculus with 12 samples.

Results

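The genes described here are 6 genes for the sensing of DNA in the cytosol, taken by name from a deposited table of 55536 rows: Cgas, Tmem173 (which encodes STING), Tbk1, Ikbke, Trex1 and Samhd1. Each symbol stood on 1 row, and all 6 passed the filter on low values that 14407 genes passed. The RNA came from B16.F10, a melanoma cell line of C57BL/6 mice. Cells carried a small interfering RNA for 72 h, directed either at Prmt7 (siPRMT7), an arginine methyltransferase gene, or at luciferase (siLuc), which mouse cells lack. The 4 groups were siPRMT7 cells given interferon gamma (IFN-γ) in the final 24 h, siPRMT7 cells without it, siLuc cells with it and siLuc cells without it, with 3 libraries each. All groups are 1 cell line and all were transfected, and an untransfected group was not analysed here. The labels call the libraries of a group replicates and do not say whether they came from separate cultures, so p-values measure only the spread between these libraries, which may be technical.

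cGAS binds double-stranded DNA in the cytosol and makes the cyclic dinucleotide cGAMP. cGAMP binds STING in the endoplasmic reticulum, and STING then moves to the Golgi and recruits the kinase TBK1 and its relative IKKε (Ikbke), which act on the transcription factor IRF3 to switch on type I interferon. TREX1 and SAMHD1 stand on the other side of the pathway: the exonuclease degrades stray DNA and the triphosphohydrolase breaks down deoxynucleotides, and loss of either causes an interferon disease in people. In human melanoma lines the pathway is often silenced at cGAS or STING.

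All values are the authors' rlog values, a log2 scale on which 1 unit is a 2-fold step, and each difference is 1 group's mean less the other's, with a standard error (SE) that limma took from all 4 groups together. Such values pull genes with few reads toward their mean. Library totals ran from 18.97 to 30.98 M reads. Prmt7 averaged 6.25 and 6.30 in siPRMT7 cells with and without IFN-γ, and 10.25 and 10.25 in siLuc cells with and without it, so the libraries follow their labels at the targeted gene. All 7 melanocytic markers were measured, from Tyr at a group mean of 12.14 or more to Tyrp1 at up to 17.30. Of 8 leukocyte markers only Cd68 and Csf1r passed the filter, and Cd3e and Adgre1 were listed at 0 in every library. The log2 of the summed leukocyte markers was 9.15 to 9.22 in siPRMT7 cells with IFN-γ, 8.82 to 9.06 in siPRMT7 cells without it, 8.46 to 8.68 in siLuc cells with it and 8.69 to 8.74 in siLuc cells without it. For 7 fibroblast, endothelial and keratinocyte markers, of which 3 passed the filter, it was 9.34 to 9.60, 9.94 to 10.11, 8.09 to 8.26 and 9.39 to 9.69, and for the melanocytic markers 18.10 to 18.20, 18.54 to 18.57, 18.62 to 18.70 and 18.88 to 18.94, in the same order of groups. These sums differed between the groups, and their part in the results was not tested.

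In short, IFN-γ raised the adaptor Tmem173, the kinase genes Tbk1 and Ikbke, the nuclease gene Trex1 and the triphosphohydrolase gene Samhd1 in cells of both kinds. Cgas fell with IFN-γ in siPRMT7 cells and was not called in siLuc cells, and its responses differed by their own test. With IFN-γ present, Cgas, Tmem173, Trex1 and Samhd1 were lower in siPRMT7 than in siLuc cells and Tbk1 was slightly higher. Without IFN-γ, Samhd1 was lower in siPRMT7 cells, Tbk1 was slightly higher, and Tmem173, Trex1 and Ikbke were not called. Cgas was called slightly higher there, by 0.17, a call that the authors' deposited table does not make.

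**Figure D1:**
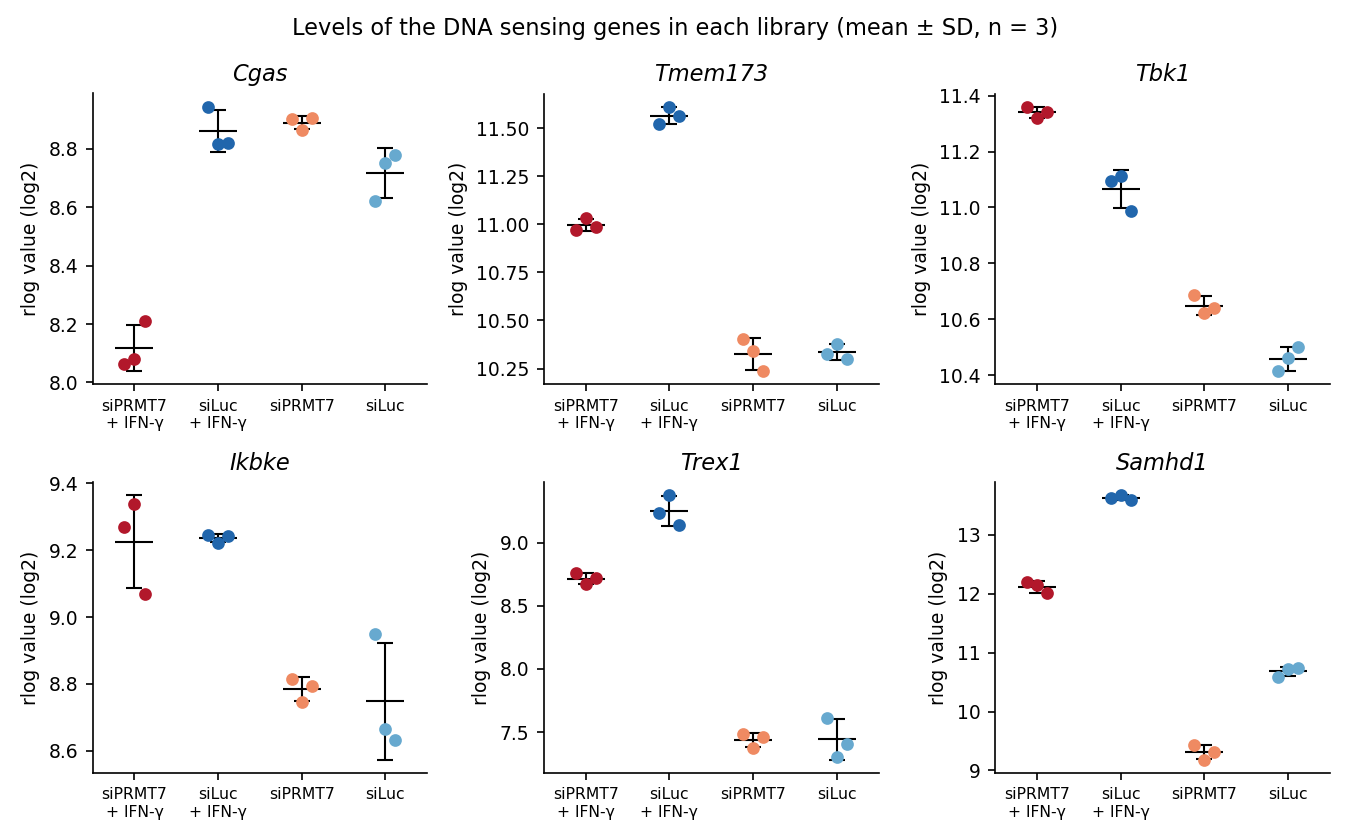
Levels of the 6 genes by library. The y axis is the rlog value (log2 scale, own range in each panel), the x axis gives the 4 groups, points are libraries, and bars are the mean ± SD (n = 3). Cgas is lowest in the 3 siPRMT7 libraries with IFN-γ (8.06 to 8.21), and Samhd1 separates all 4 groups.

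Cgas (ENSMUSG00000032344.17, mm10 chromosome 9, 78430526 to 78443204, minus strand) encodes the sensor. Its rlog values were 8.06, 8.08 and 8.21 in siPRMT7 cells with IFN-γ, 8.90, 8.86 and 8.91 in siPRMT7 cells without it, 8.94, 8.82 and 8.82 in siLuc cells with it, and 8.62, 8.75 and 8.78 in siLuc cells without it. All 3 siPRMT7 libraries with IFN-γ lay below the other 9, which spanned a narrow range. IFN-γ lowered Cgas 1.71-fold in siPRMT7 cells (log2 difference -0.77, SE 0.06, limma adjusted p = 1.16e-09). In siLuc cells the difference was 0.14 and was not called (95% interval 0.01 to 0.28, adjusted p = 0.0606). That p fell under the threshold without a mean-variance trend (adjusted p = 0.0476) and without siLuc replicate 3 (adjusted p = 0.0397). The responses differed by -0.91 (siPRMT7 minus siLuc, SE 0.09, adjusted p = 8.92e-08), lower than at all but 2.30% of the tested genes.

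With IFN-γ in both groups, Cgas was lower 1.67-fold in the siPRMT7 cells (-0.74, SE 0.06, adjusted p = 1.19e-09). Without IFN-γ it was higher by 0.17 (SE 0.06, adjusted p = 0.0202), a call that rests on little. The authors' deposited table has 0.18 with an adjusted p of 0.109 for it. The call was also lost without siPRMT7 replicate 1 (0.17, adjusted p = 0.0541), without siPRMT7 replicate 3 (0.16, adjusted p = 0.0558) and without siLuc replicate 1 (0.12, adjusted p = 0.104).

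Of the Cgas exon bases, 201 (4.96%) lie opposite Gm8093, and since use of strand in counting is not stated, reads of these bases may be mixed.

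The promoters of Cgas and Samhd1 are shown because these genes gave the largest fall and the largest rise with IFN-γ among the 6. The sequences come from RefSeq's windows (GRCm38.p6, minus strand, 5′ to 3′). For Cgas they are the 250 bases before RefSeq's start (chr9:78443238-78443487), which lies 33 bases before the transcript in the table, and for Samhd1 the 81 window bases before the transcript in the table (chr2:157135266-157135346). Capitals mark a match to GAS, the interferon gamma-activated sequence.
Cgas: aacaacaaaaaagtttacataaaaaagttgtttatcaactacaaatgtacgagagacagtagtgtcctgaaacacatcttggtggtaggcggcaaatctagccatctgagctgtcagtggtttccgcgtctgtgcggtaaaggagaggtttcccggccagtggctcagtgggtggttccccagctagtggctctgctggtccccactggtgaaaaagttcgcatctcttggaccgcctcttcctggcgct
Samhd1: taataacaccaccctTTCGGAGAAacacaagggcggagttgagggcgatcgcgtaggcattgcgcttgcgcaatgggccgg

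Windows of 300 bases were searched on both strands for GAS (TTCNNNGAA), the interferon-stimulated response element (GAAA, any 2 bases, GAAA), an NF-κB site (GGGAA, any base, TTCC), the cyclic AMP element (TGACGTCA) and an E2F-like site (TTCCCGC). Windows of 5 of the 6 genes were searched, 6 in all since Trex1 had a pair, and Tmem173 was left out of the search. The single match was GAS in Samhd1, 58 to 66 bases before the start of the transcript in the table. GAS was present in 8.3% of all 32851 windows, the response element in 3.44%, the E2F-like site in 4.6%, the cyclic AMP element in 1.79% and the NF-κB site in 0.341%. RefSeq's start of Samhd1 lies 169 bases inside that transcript, so its window covers few bases upstream. A match is a string of letters and not a binding site, and the absence of one says nothing of bases outside these windows.

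Tmem173 (ENSMUSG00000024349.10, chromosome 18, 35733681 to 35740554, minus strand) encodes STING, the receptor for cGAMP. Its values were 10.97, 11.03 and 10.99 in siPRMT7 cells with IFN-γ, 10.40, 10.34 and 10.24 in siPRMT7 cells without it, 11.52, 11.61 and 11.56 in siLuc cells with it, and 10.33, 10.38 and 10.30 in siLuc cells without it. The untreated groups overlapped, and the treated groups lay above them and apart from each other. IFN-γ raised Tmem173 1.59-fold in siPRMT7 cells (0.67, SE 0.04, adjusted p = 1.69e-11) and 2.34-fold in siLuc cells (1.23, SE 0.04, adjusted p = 3.89e-16).

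The responses of Tmem173 differed by -0.56 (SE 0.06, adjusted p = 4.37e-07). With IFN-γ, Tmem173 was therefore lower in siPRMT7 than in siLuc cells by 0.57 on the log2 scale (-0.57, SE 0.04, adjusted p = 1.73e-10), 1.48-fold. Without IFN-γ the difference was -0.01 and was not called (95% interval -0.10 to 0.08, adjusted p = 0.836).

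Tbk1 (ENSMUSG00000020115.3, chromosome 10, 121546455 to 121586787, minus strand) encodes the main kinase downstream of STING. Its values were 11.36, 11.32 and 11.34 in siPRMT7 cells with IFN-γ, 10.69, 10.62 and 10.64 in siPRMT7 cells without it, 11.09, 11.11 and 10.99 in siLuc cells with it, and 10.42, 10.46 and 10.50 in siLuc cells without it. No pair of these groups overlapped. IFN-γ raised Tbk1 1.62-fold in siPRMT7 cells (0.69, SE 0.04, adjusted p = 3.06e-12) and 1.52-fold in siLuc cells (0.61, SE 0.04, adjusted p = 3.27e-11). The difference of these responses, 0.09, was not called (95% interval -0.03 to 0.21, adjusted p = 0.281).

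Tbk1 was the only one of the 6 genes called higher in siPRMT7 than in siLuc cells with IFN-γ, by 0.28 (SE 0.04, adjusted p = 3.28e-06), 1.21-fold. Without IFN-γ it was higher by 0.19 (SE 0.04, adjusted p = 0.000273), 1.14-fold. These were small differences beside the median size of called differences over all genes, 0.44 with and 0.45 without IFN-γ.

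Ikbke (ENSMUSG00000042349.13, chromosome 1, 131254597 to 131279606, minus strand) encodes IKKε, a relative of TBK1 that is itself known as interferon-inducible. Its values were 9.27, 9.34 and 9.07 in siPRMT7 cells with IFN-γ, 8.82, 8.75 and 8.79 in siPRMT7 cells without it, 9.24, 9.22 and 9.24 in siLuc cells with it, and 8.95, 8.66 and 8.63 in siLuc cells without it. Treated libraries lay above untreated ones in cells of each kind, and siPRMT7 and siLuc libraries overlapped with and without the cytokine. IFN-γ raised Ikbke 1.36-fold in siPRMT7 cells (0.44, SE 0.08, adjusted p = 4.06e-05) and 1.40-fold in siLuc cells (0.49, SE 0.08, adjusted p = 1.07e-05). Knockdown differences were not called with IFN-γ (-0.01, 95% interval -0.17 to 0.15, adjusted p = 0.905) or without it (0.04, 95% interval -0.12 to 0.19, adjusted p = 0.672). The difference of the responses was not called either (-0.05, 95% interval -0.27 to 0.18, adjusted p = 0.778). Ikbke shares 40 and 20 exon bases with the antisense genes Gm28914 and Gm28913, and Tmem173, Tbk1 and Samhd1 share none with another gene.

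**Figure D2:**
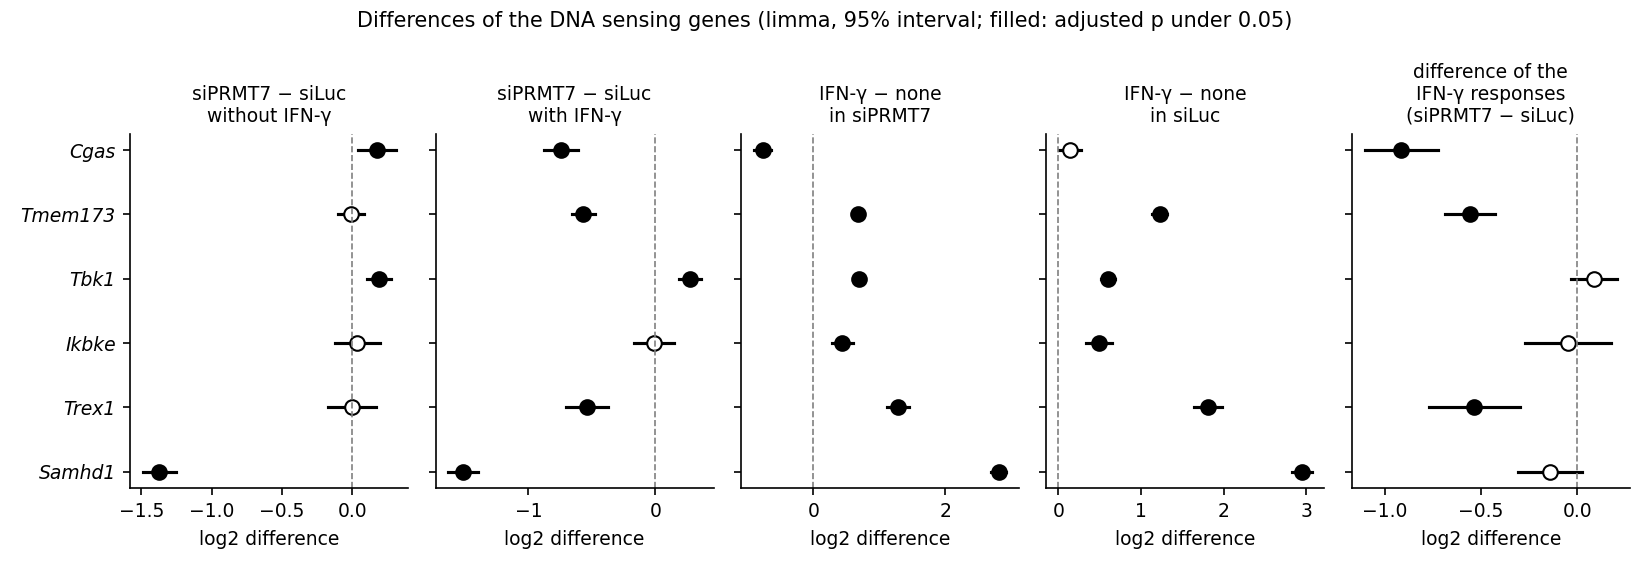
Log2 differences of the 6 genes in each comparison. Points are limma estimates with 95% intervals (n = 3 libraries per group), filled where the adjusted p was under 0.05, and each panel has its own x scale. Cgas is the only gene below 0 for IFN-γ in siPRMT7 cells, while in the last panel the called genes, Cgas, Tmem173 and Trex1, lie below 0.

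Trex1 (ENSMUSG00000049734.9, chromosome 9, 109057933 to 109059734, minus strand) encodes the exonuclease that removes DNA from the cytosol. Its values were 8.76, 8.67 and 8.72 in siPRMT7 cells with IFN-γ, 7.48, 7.37 and 7.46 in siPRMT7 cells without it, 9.24, 9.38 and 9.15 in siLuc cells with it, and 7.61, 7.30 and 7.41 in siLuc cells without it. The untreated groups overlapped and the treated groups did not. IFN-γ raised Trex1 2.43-fold in siPRMT7 cells (1.28, SE 0.08, adjusted p = 9.27e-12) and 3.51-fold in siLuc cells (1.81, SE 0.08, adjusted p = 2.09e-14). The responses differed by -0.54 (SE 0.11, adjusted p = 0.00102).

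With IFN-γ, Trex1 was lower 1.45-fold in the siPRMT7 cells (-0.54, SE 0.08, adjusted p = 3.81e-06). Without it the difference was -0.00 (95% interval -0.17 to 0.16, adjusted p = 0.981). Trex1 shares its place with Atrip, which encodes the partner of the checkpoint kinase ATR and runs on the same strand. Of the 1084 exon bases of Trex1, 1081 also belong to the Atrip transcript in the table, where they make up 25.65% of its length. Reads from these bases cannot be assigned to either gene, so the Trex1 values are uncertain, as are the differences and folds taken from them. How much of the Trex1 row is Atrip RNA, with or without IFN-γ, was not tested.

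The Atrip row moved the same way as the Trex1 row. It rose with IFN-γ by 0.43 in siPRMT7 cells (SE 0.05, adjusted p = 7.19e-07) and by 0.79 in siLuc cells (SE 0.05, adjusted p = 4.81e-11). On a linear scale (2 to the power of the rlog value), Trex1 averaged 421 ± 13 in siPRMT7 cells with IFN-γ, 174 ± 7 in siPRMT7 cells without it, 612 ± 50 in siLuc cells with it and 174 ± 20 in siLuc cells without it (SD, n = 3). Atrip less Trex1 was 398 ± 23, 436 ± 11, 410 ± 20 and 417 ± 26 in the same order of groups, a narrower range than that of either gene. This subtraction was chosen after its values were seen and is a description with no test.

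Samhd1 (ENSMUSG00000027639.16, chromosome 2, 157097533 to 157135265, minus strand) encodes the deoxynucleotide triphosphohydrolase that also restricts retroviruses. Its values were 12.19, 12.15 and 12.01 in siPRMT7 cells with IFN-γ, 9.43, 9.18 and 9.31 in siPRMT7 cells without it, 13.63, 13.67 and 13.58 in siLuc cells with it, and 10.58, 10.72 and 10.74 in siLuc cells without it. No groups overlapped: treated siLuc libraries were highest, then treated siPRMT7, untreated siLuc and untreated siPRMT7 libraries. With IFN-γ, Samhd1 was lower in siPRMT7 than in siLuc cells 2.85-fold (-1.51, SE 0.06, adjusted p = 9.83e-16), and in untreated cells 2.59-fold (-1.37, SE 0.06, adjusted p = 5.95e-15). In bulk RNA, fewer cells with a transcript and less of it per cell cannot be told apart.

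IFN-γ raised Samhd1 by 2.81 in siPRMT7 cells (SE 0.06, adjusted p = 1.12e-20) and by 2.95 in siLuc cells (7.72-fold, SE 0.06, adjusted p = 3.30e-21), the largest response of the 6 genes. The difference of these responses, -0.14, was not called (95% interval -0.31 to 0.02, adjusted p = 0.191). Being uncalled does not show that the responses were alike.

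Counted together, IFN-γ raised 5 of the 6 genes and lowered 1 in siPRMT7 cells, with a median difference of 0.68 against -0.00 over all genes tested, where 56.6% of genes were called. In siLuc cells it raised 5, lowered 0 and left Cgas not called, with a median of 0.92 against -0.02 over all genes and 60.6% of genes called. Over all genes, 28.0% were called higher and 28.6% lower in siPRMT7 cells, and 28.0% higher and 32.7% lower in siLuc cells. With IFN-γ, 1 gene was higher and 4 were lower in siPRMT7 than in siLuc cells (median -0.55 against -0.01), where 74.7% of genes were called, 35.9% higher and 38.7% lower. Without IFN-γ, 2 were higher, 1 was lower and 3 were not called (median 0.02 against -0.01), where 75.2% of genes were called, 36.3% higher and 38.9% lower. Since most genes passed the test in each knockdown comparison, these counts of 5 and 3 called genes do not set the 6 genes apart.

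The 3 libraries of each group lay apart for all 6 genes in the IFN-γ comparisons, where this held for 65.3% of genes in siPRMT7 cells and 62.1% in siLuc cells. They lay apart for 5 genes in the knockdown comparison with IFN-γ (77.2% of genes) and for 3 without it (76.3% of genes). Comparisons share libraries: the siLuc libraries without IFN-γ, for instance, stand under both the knockdown and the IFN-γ comparison. The authors' deposited table makes the same calls for the 6 genes in the comparisons of pairs of groups, except for Cgas without IFN-γ.

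The difference of the IFN-γ responses was called for 3 of the 6 genes, all lower in siPRMT7 cells (Cgas, Tmem173 and Trex1), where 30.6% of all genes were called, 14.1% higher and 16.5% lower. Changes of at least 2-fold with IFN-γ in siLuc cells were called for 5.57% of genes. Of the 658 such genes that were higher, 440 had a lower response in siPRMT7 cells, 64 a higher one and 154 were not called. Their median difference of responses was -0.56, close to the -0.56 of Tmem173 and the -0.54 of Trex1. The siLuc response both chose these genes and enters the difference, so the count is a description. Samhd1, at -0.14, stood above 76.0% of them. Cgas is not among them, since its difference in siLuc cells was neither called nor 2-fold.

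**Figure D3:**
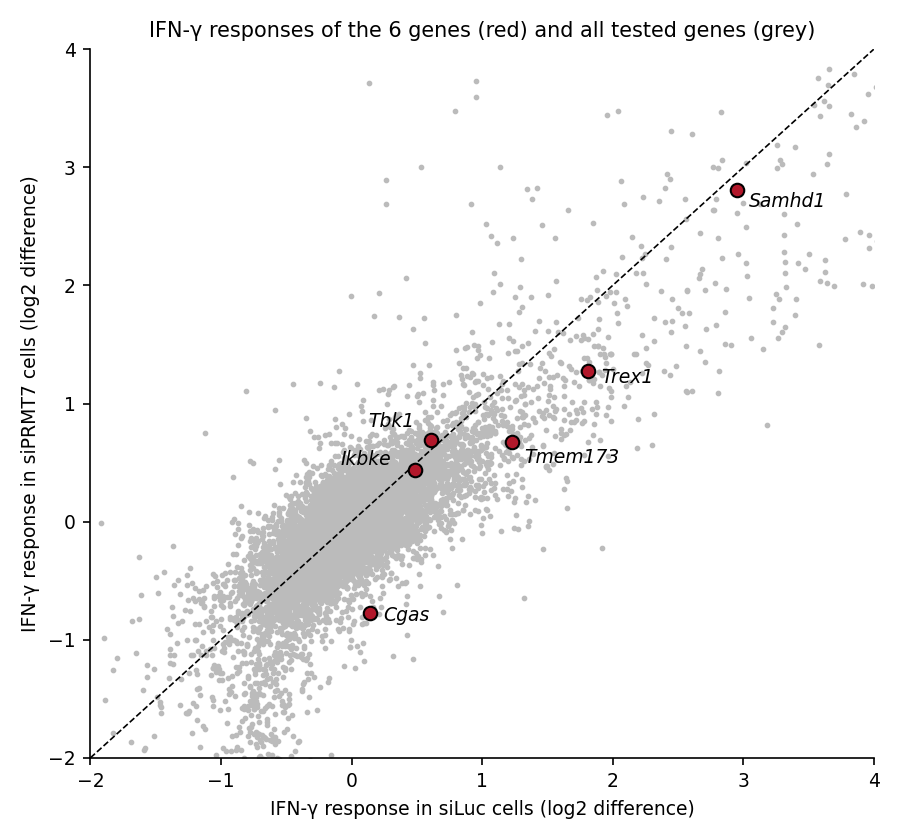
IFN-γ responses in siPRMT7 cells (y axis) against those in siLuc cells (x axis), as log2 differences of group means of 3 libraries. Grey points are the 14407 genes tested, of which 173 lie outside the axes, red points are the 6 genes, and the dashed line marks equal responses. Tbk1 and Ikbke lie near the line, Tmem173 and Trex1 below it, and Cgas below it with a response of -0.77 in siPRMT7 and 0.14 in siLuc cells.

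Levels were set beside each other after scaling for transcript length (rlog value minus the log2 of the length in kb, from the lengths in the table). Cgas was the lowest of the 6 in every group, at 6.10 in siPRMT7 cells with IFN-γ, 6.88 in siPRMT7 cells without it, 6.85 in siLuc cells with it and 6.70 in siLuc cells without it. Ikbke was next, at 7.54, 7.10, 7.55 and 7.07 in the same groups, and Trex1 stood above it at 8.60, 7.33, 9.14 and 7.33. Trex1 and Ikbke libraries overlapped in siLuc cells without IFN-γ. Cgas and Ikbke thus had the lowest group means of the 6 rows in all 4 groups. Reads of the Trex1 row cannot be told apart from those of Atrip. How Trex1 RNA itself ranks against Cgas and Ikbke is therefore uncertain.

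The upper end of the order changed with IFN-γ. In treated cells Samhd1 was highest on this scale, at 10.15 in siPRMT7 and 11.67 in siLuc cells, followed by Tmem173 at 9.81 and 10.37 and Tbk1 at 9.76 and 9.49 in the same groups. In untreated cells Tmem173 came first, at 9.13 in siPRMT7 and 9.14 in siLuc cells, then Tbk1 at 9.07 and 8.88 and Samhd1 at 7.35 and 8.72. Tmem173 and Tbk1 libraries overlapped in siPRMT7 cells with and without IFN-γ, and did not overlap in siLuc cells. Samhd1 and Trex1 libraries overlapped in siPRMT7 cells without IFN-γ. The length-scaled level of Tbk1 exceeded that of Ikbke 4.66-fold in siPRMT7 cells with IFN-γ, 3.91-fold in siPRMT7 cells without it, 3.82-fold in siLuc cells with it and 3.52-fold in siLuc cells without it.

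**Figure D4:**
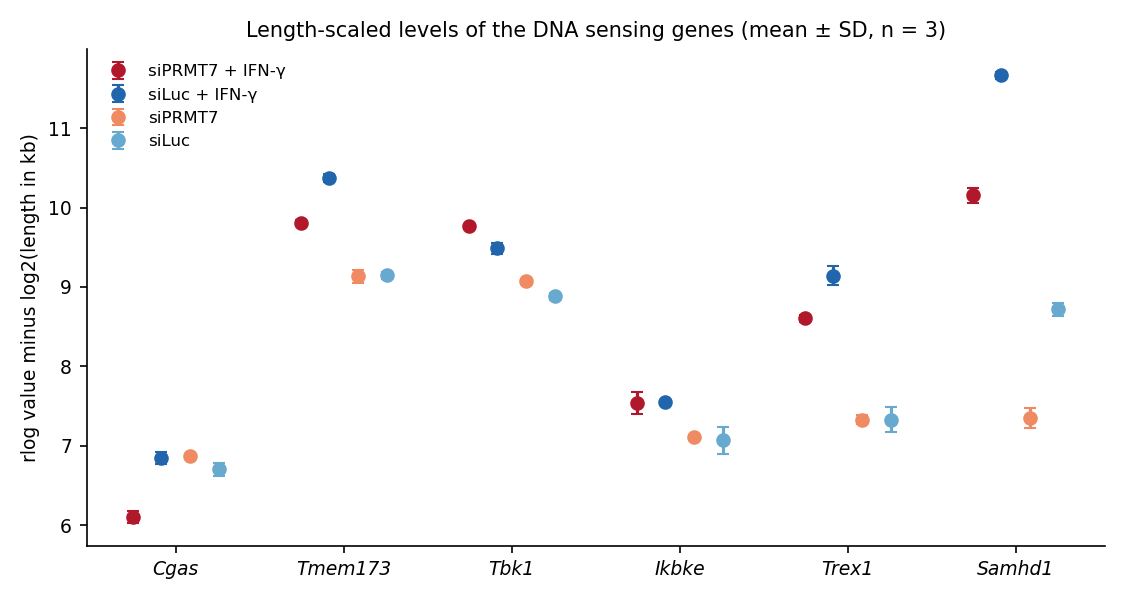
Length-scaled levels of the 6 genes. The y axis is the rlog value minus the log2 of the transcript length in kb, points are group means and bars the SD (n = 3). Cgas is lowest in each group, and Samhd1 is highest in both treated groups (10.15 in siPRMT7 and 11.67 in siLuc cells). The Trex1 row may hold Atrip reads, so the place of Trex1 is uncertain.

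Genes with the most similar pattern were ranked by Pearson r over the 12 libraries, which fall into 4 groups, as a description with no test. Closest to Samhd1 were Aida (r = 0.997), the proteasome subunit gene Psma5 (r = 0.997) and the complement gene C2 (r = 0.996). Closest to Trex1 were the purine nucleoside phosphorylase gene Pnp (r = 0.995), the proteasome subunit gene Psma2 (r = 0.995) and Gsdmd (r = 0.993), which encodes the pore-forming gasdermin D. For Tmem173 they included Mras (r = 0.998) and Ppfibp2 (r = 0.993).

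The kinase genes had other neighbours. For Tbk1 these were Akap7 (r = 0.994), Nudt13 (r = 0.993) and the centriole gene Cenpj (r = 0.993), and for Ikbke the small GTPase gene Rit1 (r = 0.975), Clic1 (r = 0.969) and the cytokine gene Il15 (r = 0.965). For Cgas they were Mlf1 (r = 0.977), the galactosyltransferase gene B3galt5 (r = 0.973) and Tbc1d2b (r = 0.971). The number of genes with r over 0.95 was 271 for Trex1, 268 for Tbk1, 189 for Tmem173 and 174 for Samhd1, against 9 for Ikbke and 4 for Cgas. Such counts also depend on the spread of a gene between libraries, so they do not show how rare a pattern is.

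Around the 6 genes, members of the AIM2-like receptor family, which bind DNA and form inflammasomes or act with STING, rose with IFN-γ. Of 13 listed, 9 passed the filter, some only through their treated libraries (Ifi209 averaged 3.16 in siPRMT7 and 3.20 in siLuc cells without IFN-γ), so no count or median over the 9 is given. Ifi203 rose by 4.86 and 7.20, Ifi204, the mouse relative of human IFI16, by 5.98 and 7.03, Mndal by 4.93 and 6.59, and Ifi207 by 5.68 and 6.08, in siPRMT7 and siLuc cells in that order. These genes lie in a cluster of close copies, so reads may be split between them and single values are uncertain. Aim2 itself did not pass the filter.

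Of 15 other genes for sensors and for cofactors or competitors of cGAS, 13 were lower and 1 higher in siPRMT7 than in siLuc cells with IFN-γ (median -0.46). Without it 12 were lower and 2 higher (median -0.38). Over all genes, 38.7% were lower and 35.9% higher with IFN-γ, and 38.9% lower and 36.3% higher without it. Hmgb2, a DNA-bending chromatin protein, was at -2.86 with IFN-γ and -1.88 without it. Banf1, which competes with cGAS for DNA on chromatin, was at -1.04 and -1.17, and Xrcc6, the Ku70 subunit of DNA repair, at -1.01 and -0.89. Xrcc5, for the other Ku subunit, went the other way, at 0.70 and 0.55. It was the 1 gene of the list called higher with IFN-γ. Zbp1, a sensor of Z-form nucleic acid, rose with IFN-γ by 7.59 in siPRMT7 and 8.49 in siLuc cells.

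Of 13 TBK1 adaptors and downstream factors, 7 were higher and 2 lower in siPRMT7 than in siLuc cells with IFN-γ (median 0.15), and 8 were higher and 3 lower without it (median 0.37), beside 35.9% of all genes higher and 38.7% lower with IFN-γ, and 36.3% higher and 38.9% lower without it. Irf3, the direct target of TBK1, was not called in any comparison, with rlog group means of 9.76 in siPRMT7 cells with IFN-γ, 9.80 in siPRMT7 cells without it, 9.78 in siLuc cells with it and 9.86 in siLuc cells without it. Irf7, its inducible relative, rose with IFN-γ by 3.15 in siPRMT7 cells and 4.70 in siLuc cells, and without IFN-γ it was 1.46 higher in siPRMT7 cells. The adaptor gene Azi2 was higher in siPRMT7 cells by 0.34 with and 0.58 without IFN-γ, the IKK subunit gene Ikbkg by 0.50 and 0.63, and Rela by 0.62 and 0.38.

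Genes listed here as targets of IRF3, or of the type I interferon it switches on, can also be induced by IFN-γ, and they rose with it. All 10 that passed the filter were higher with IFN-γ, beside 28.0% of all genes in cells of each kind, with a median of 2.61 in siPRMT7 and 3.81 in siLuc cells. In siPRMT7 against siLuc cells without IFN-γ, 9 were higher and 1 lower (median 1.89), and with IFN-γ 6 were higher and 2 lower (median 0.23), beside 36.3% and 35.9% of all genes higher in these comparisons. Ifit3 was at 2.52 without IFN-γ and -0.15 with it, Isg15 at 2.13 and -0.10, Mx1 at 2.42 and 0.17, and Ifit1 at 1.98 and 0.20, of which Mx1 with IFN-γ was not called.

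Of 9 further genes of nucleases and of the handling of self nucleic acid, 5 were lower and 2 higher in siPRMT7 than in siLuc cells with IFN-γ, and 7 were lower and 1 higher without it. Over all genes 38.7% were lower with IFN-γ and 38.9% without it. The flap endonuclease gene Fen1 was at -1.26 with and -0.74 without IFN-γ, and Rnaseh2a, the catalytic subunit of RNase H2, at -0.72 and -0.54. Adar, which edits double-stranded RNA, was higher by 0.34 and 1.11 in those comparisons. Dnase1l1 was at 0.19 with IFN-γ, which was not called, and -0.23 without it.

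Enzymes that supply deoxynucleotides, the substrates of SAMHD1, were mostly lower beside Samhd1. With IFN-γ 7 of 8 were lower and 0 higher in siPRMT7 cells (median -1.77), and without it 7 were lower and 1 higher (median -1.09), beside 38.7% and 38.9% of all genes lower. Rrm2, of ribonucleotide reductase, was at -2.59 with and -1.20 without IFN-γ, the thymidine kinase gene Tk1 at -2.36 and -1.17, Dut at -1.95 and -1.11, and Tyms at -1.84 and -1.08. Rrm2b, also of ribonucleotide reductase, was the 1 gene higher without IFN-γ, at 0.67, and was at 0.04 with it, which was not called. While Samhd1 rose with IFN-γ, all 8 were lower with IFN-γ in siPRMT7 cells (median -1.48), and 6 of 8 were lower and 1 higher in siLuc cells (median -0.78), beside 28.6% and 32.7% of all genes lower.

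**Figure D5:**
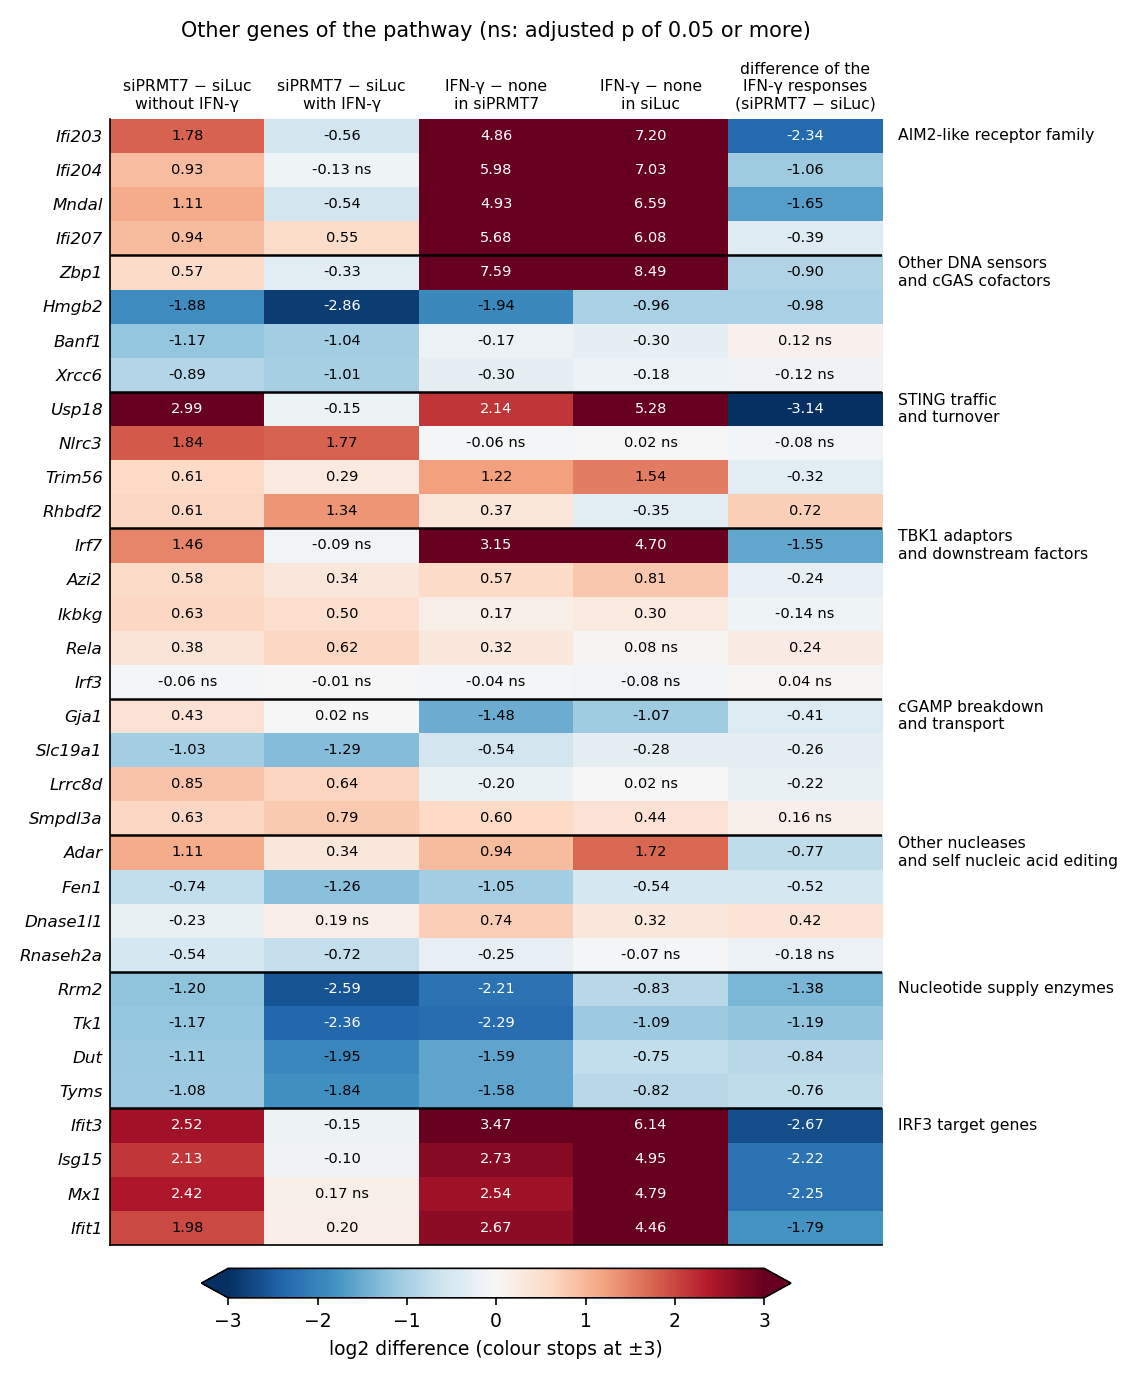
Log2 differences of named genes around the 6, by list (right) and comparison (columns, n = 3 libraries per group). Red is higher and blue lower, the colour stops at ±3, and ns marks an adjusted p of 0.05 or more. Deoxynucleotide enzymes such as Rrm2 are lower in each column, while Irf3 is near 0 throughout.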

How the data were processed

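RNA was sequenced in 12 libraries, 3 in each of 4 groups. Per the file headers, the authors deposited rlog values (regularized, log2 scale, adjusted for library size) together with their own log2 fold changes and adjusted p-values. How they adjusted those p-values was not stated in the material read. The submitters' processing notes name Trimmomatic 0.39, STAR 2.7.1a, HOMER 4.11.1, DESeq2 1.26.0 and the build mm10. Use of strand in counting was likewise not stated there. Transcript lengths stand in the same deposited table, which has 55536 rows.

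Where a symbol had several rows the one with the highest mean was kept, and the 14407 genes whose rlog values averaged 4 or more entered limma 3.58.1 (R 4.3.3). The model held 1 mean per group and no replicate term, with moderated variances and a mean-variance trend (residual degrees of freedom 8, prior 12.4). Tests were 2-sided, p-values were adjusted by Benjamini-Hochberg over every gene tested, and 0.05 was the threshold for a call. The pipeline was tested on simulated data. Exon overlaps came from GENCODE M21 and promoter windows from RefSeq (GRCm38.p6). All 6 transcripts had equal coordinates in GENCODE and in the table.

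The 6 genes and the lists were chosen with earlier results of these data known. Further genes were named by rule: up to 4 called genes per list with the largest difference in any comparison of a pair of groups, Irf3, and the 3 genes with the highest Pearson r to each of the 6. One gene this rule named is not reported here. Alternatives were quantile normalization, median centring, other filters and variance models, a fit on the compared groups alone, a replicate block, leaving out each library, and the authors' own calls. Library totals ran from 18.97 to 30.98 M reads. No counts per gene were used, so no counting interval is given.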

Additional observations from a re-analysis of the deposited data

Results flagged for a closer look

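The IFN-γ response differed between siPRMT7 and siLuc cells, by the test of the difference itself, for Cgas (-0.91), Tmem173 (-0.56) and Trex1 (-0.54), all lower in siPRMT7 cells. For Cgas the response was called in siPRMT7 cells and not in siLuc cells, and each of the 3 treated siPRMT7 libraries lay below all other libraries. For Trex1 the value is shared with Atrip, whose responses differed by -0.36 (limma adjusted p = 0.00104). Groups of 3 libraries are too small for a test of single outlying libraries.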

How the results depend on the processing

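Every called difference of the 6 genes kept its direction under all alternatives run. Only Cgas crossed the threshold. Without IFN-γ the authors' deposited table does not call its difference between siPRMT7 and siLuc cells (0.18), which leaves 1 gene called higher, and leaving out a library gave 0.12 to 0.20 and 1 to 2 genes called higher. In siLuc cells its IFN-γ response was called without a mean-variance trend (0.14), and leaving out a library gave 0.095 to 0.17. Differences that were not called changed sign near 0. Tmem173 without IFN-γ was 0.075 under quantile normalization and 0.029 under median centring, and -0.048 to 0.034 with a library left out. Trex1 was 0.037 under median centring and -0.072 to 0.084 with a library left out. Ikbke was -0.022 to 0.14 with a library left out. With IFN-γ Ikbke was 0.071 under quantile normalization, 0.074 under median centring and -0.066 to 0.067 with a library left out, and its difference of responses was 0.038 under quantile normalization and -0.15 to 0.031 with a library left out. The file headers give each library a Serie number that recurs across the groups. Deviations of same-numbered libraries correlated slightly more (median 0.0629, over 0.1 in 5 of 18 pairs) than those of other pairs (median -0.021, over 0.1 in 3 of 36). This does not settle whether the numbers pair the libraries, and the main model left the numbers out. With the replicate number as a block the same calls of the 6 genes were made and 10896 genes were called without IFN-γ, against 10835. The rlog scale limits what can be said of genes with few reads.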

Other observations

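Of 24 genes for STING traffic and turnover, 9 were higher and 10 lower in siPRMT7 than in siLuc cells with IFN-γ, and 12 were higher and 9 lower without it. Over all genes 35.9% were higher and 38.7% lower with IFN-γ, and 36.3% higher and 38.9% lower without it, so these counts lie near the background. Nlrc3, a negative regulator of STING in mice, was higher by 1.77 with and 1.84 without IFN-γ, and Rhbdf2, which encodes iRhom2, by 1.34 and 0.61. Usp18, which removes ISG15 and is interferon-inducible, was at -0.15 with IFN-γ and 2.99 without it, and the ubiquitin ligase gene Trim56 at 0.29 and 0.61. Of 9 genes for cGAMP breakdown and transport, 4 were higher and 3 lower with IFN-γ, and 5 were higher and 3 lower without it, near the same background with IFN-γ. The folate carrier gene Slc19a1, which can import cyclic dinucleotides in human cells, was at -1.29 with and -1.03 without IFN-γ. Smpdl3a was at 0.79 and 0.63 and the anion channel gene Lrrc8d at 0.64 and 0.85. Gja1, which encodes the gap junction protein connexin 43, fell with IFN-γ by 1.48 in siPRMT7 cells and fell by 1.07 in siLuc cells.

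Ifnb1, the interferon gene at the end of the pathway, did not pass the filter on the mean and was not tested; it is named after its values were seen. Its rlog values were 4.04, 3.87 and 4.29 in siPRMT7 cells with IFN-γ, 2.75, 2.67 and 2.98 in siPRMT7 cells without it, 2.95, 2.96 and 2.92 in siLuc cells with it, and 2.63, 2.62 and 2.63 in siLuc cells without it. The 3 siPRMT7 libraries with IFN-γ lay above all others. Values this low are drawn toward the mean, so the size of the difference is uncertain.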
